A study of Mus musculus with 15 samples.

Results

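Zinc finger protein genes that carry a Zfp symbol followed by a number alone were examined in mouse hippocampus. They were the genes with this form of symbol in the platform annotation, without Zfp236, whose mean log2 intensity over all 15 arrays, at the brightest probe of the gene, lay above the median of all genes with values. The rule chose 124 of the 285 such genes that had values, among 16401 genes in all. Whole hippocampus came from adult female mice of a pair of inbred lines: SAMP8, prone to accelerated senescence with memory decline early in life, and SAMR1, its senescence-resistant counterpart. Sedentary SAMR1, sedentary SAMP8 and exercised SAMP8 mice gave 5 arrays each, and no exercised SAMR1 mice were among them. The labels give neither the ages nor the kind and length of the exercise. They call the numbered arrays biological replicates and do not say if 1 animal stood behind each, so a p-value reflects only how these samples spread, which may be technical.

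Most genes with such symbols encode proteins with tandem zinc fingers, small folds in which cysteines and histidines hold a zinc ion and side chains of the finger read a few bases of DNA. Many also carry a KRAB domain, which binds the scaffold protein Trim28, which in turn brings the histone methyltransferase Setdb1 and heterochromatin proteins to silence transposable elements and some genes. These genes multiplied in clusters of tandem copies that differ between rodents and primates and between mouse strains, and near-identical copies can share a hybridization signal. A smaller part of the family works outside DNA binding, in translation, RNA processing or protein modification. Of the 124 genes, 123 were protein-coding by RefSeq, and Zfp783 was listed as a long non-coding RNA. Protein sequences were not used here, so the presence of fingers or a KRAB domain in each member was not examined.

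The promoters of the 3 members that differed between the sedentary lines are shown because these genes carry the main difference described below. They are RefSeq windows of the GRCm38.p6 build, from 250 bases before to 50 after the start site, and come from the C57BL/6J reference strain, not from SAMP8 or SAMR1. The Zfp667 window is chr7:6286330-6286629 on the + strand, that of Zfp367 is chr13:64153150-64153449 on the - strand, and that of Zfp975 is chr7:42692669-42692968 on the - strand. For Zfp367 the first of its RefSeq windows is shown. Capitals mark GC boxes (GGGCGG) and CCAAT boxes (CCAAT) on either strand.
Zfp667: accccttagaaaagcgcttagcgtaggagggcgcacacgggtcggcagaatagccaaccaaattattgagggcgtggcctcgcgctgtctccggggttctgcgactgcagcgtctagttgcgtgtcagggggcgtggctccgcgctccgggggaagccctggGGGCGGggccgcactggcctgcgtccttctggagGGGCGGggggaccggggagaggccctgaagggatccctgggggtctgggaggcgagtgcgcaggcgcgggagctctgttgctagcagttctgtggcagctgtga
Zfp367: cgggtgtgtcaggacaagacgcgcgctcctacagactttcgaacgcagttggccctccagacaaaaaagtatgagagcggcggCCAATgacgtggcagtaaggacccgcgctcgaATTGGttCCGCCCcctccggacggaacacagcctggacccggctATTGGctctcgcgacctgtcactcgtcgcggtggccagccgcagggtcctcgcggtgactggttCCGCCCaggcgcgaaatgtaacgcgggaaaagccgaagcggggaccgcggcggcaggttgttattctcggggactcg
Zfp975: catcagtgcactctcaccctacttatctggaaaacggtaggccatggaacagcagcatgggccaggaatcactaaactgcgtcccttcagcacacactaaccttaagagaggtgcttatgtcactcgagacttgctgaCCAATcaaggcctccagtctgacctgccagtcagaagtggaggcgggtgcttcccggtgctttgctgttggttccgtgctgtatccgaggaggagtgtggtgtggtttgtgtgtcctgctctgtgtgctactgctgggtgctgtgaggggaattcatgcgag
The Zfp667 window held 25 CG pairs, 2 GC boxes and 0 CCAAT boxes. The Zfp367 window held 36 CG pairs, 2 GC boxes and 3 CCAAT boxes. The Zfp975 window held 8 CG pairs, 0 GC boxes and 1 CCAAT box. Over the family, 104 of the 124 members matched 129 windows, with a median of 18 CG pairs per window against 7 over all 32851 windows. A GC box stood in 50.4% of the members' windows against 35.7% of all, a CCAAT box in 44.2% against 37.4%, and the ETS motif CCGGAAG, searched on both strands, in 20.2% against 8.86%. The TATA box TATAAA stood in 9.3% against 13.6%. These are matches of letters in the reference, given as a description without a test. The members were chosen by brightness and the 32851 windows were not, so the sets also differ in more than the family.

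The members were chosen for their brightness, so their levels are a description. Their mean log2 intensities ran from 8.73 to 13.35, with a median of 9.99, and the median of all genes was 8.73. The brightest probes were those of Zfp771 (13.35), Zfp428 (13.23), Zfp523 (12.99), Zfp706 (12.63) and Zfp637 (12.52). Zfp523 is a relative of Staf, an activator of small nuclear RNA genes, and Zfp706 as a gene that limits self-renewal of mouse embryonic stem cells. A probe's brightness depends on its sequence as well as on its transcript, so no order of transcript amounts follows. Just above the threshold lay Zfp157 (8.73), Zfp451 (8.76) and Zfp667 (8.77), and just below it Zfp566 (8.72), Zfp51 (8.69) and Zfp346 (8.66). In 8 members at least 1 group mean lay at or below the threshold: Zfp157, Zfp292, Zfp30, Zfp367, Zfp451, Zfp667, Zfp772 and Zfp946. Zfp667 had a mean of 7.66 in SAMR1 and entered through the SAMP8 arrays. Zfp367, with means of 8.74 in sedentary and 8.53 in exercised SAMP8, entered through SAMR1 (9.48). Such genes had to differ to be counted, so a count over the members is no support for a change in the family. The median over the members in an array ran from 9.96 to 10.11 in SAMR1, from 9.93 to 10.07 in sedentary SAMP8 and from 9.89 to 10.04 in exercised SAMP8, so the 3 groups overlapped.

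A single SAMR1 array stood apart in markers of a neighbouring brain region. Its 4 striatal markers had a mean log2 intensity of 9.33 in replicate 5, against 7.25 to 7.48 in the other 4 SAMR1 arrays and 7.33 to 7.53 in the 10 SAMP8 arrays. Without this array the same 3 members were called between the sedentary lines as with it: Zfp667 (1.59, adjusted p = 1.34e-05), Zfp367 (-0.83, adjusted p = 0.0047) and Zfp975 (-0.40, adjusted p = 0.0317), against 2.11% of all genes. In the comparison of exercised SAMP8 with SAMR1 leaving it out kept 5 of the 6 calls and ended that of Zfp292 (adjusted p = 0.0605).

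The 124 genes were unevenly spread over the genome. Chromosome 7 held 33 of them (26.6%), against 8.34% of all genes with a position, and chromosome 17 held 13 (10.5% against 4.82%). In the order of tested genes, 51 members (41.1%) lay directly beside another gene with a Zfp number symbol, as did 3% of all genes. This is the clustering for which the family is known, seen here among genes above median brightness.

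**Figure D1:**
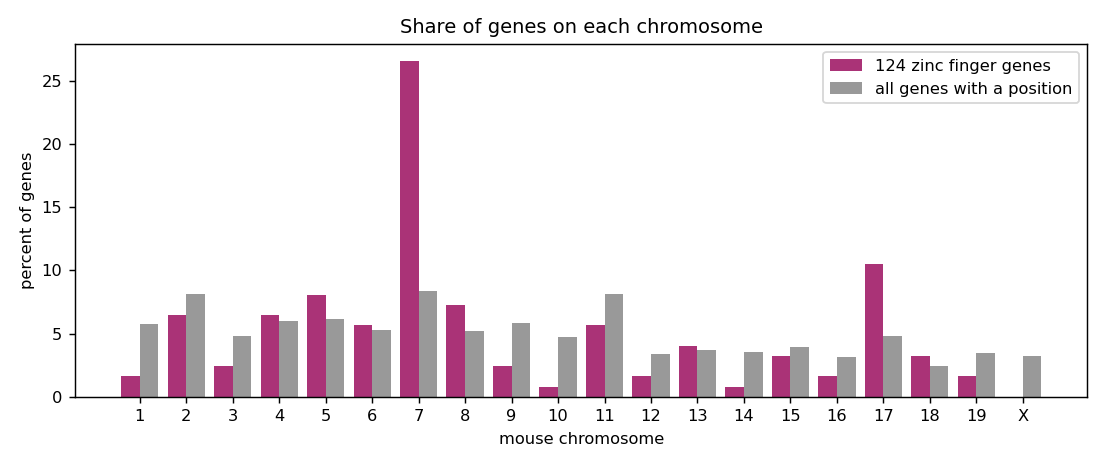
Share of the 124 zinc finger genes (coloured bars) and of all genes with a position (grey bars) on each mouse chromosome, in percent. Chromosome 7 holds 26.6% of the zinc finger genes and 8.34% of all genes.

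The first comparison set sedentary SAMP8 against sedentary SAMR1. Zfp667 was 3.32-fold higher in SAMP8, Zfp367 1.67-fold lower and Zfp975 1.33-fold lower. The other 121 members did not pass the test, which called a gene at an adjusted p under 0.05 (limma over all genes). The 3 called members were 2.42% of the family, while 2.63% of all genes were called, 1.46% higher and 1.16% lower in SAMP8. The family's share was thus near the background and is not a result about the family. The median difference over the members was -0.001 on the log2 scale (all genes 0.003), with 58 members higher and 66 lower, and the median size of a difference was 0.093 (all genes 0.098). Groups that did not overlap were found in 5 members (4.03%) against 4.19% of all genes: 2 higher in SAMP8 (all genes 2.26%) and 3 lower (all genes 1.93%). At an unadjusted p under 0.05 there were 12 members (9.68%) against 11.2% of all genes.

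**Figure D2:**
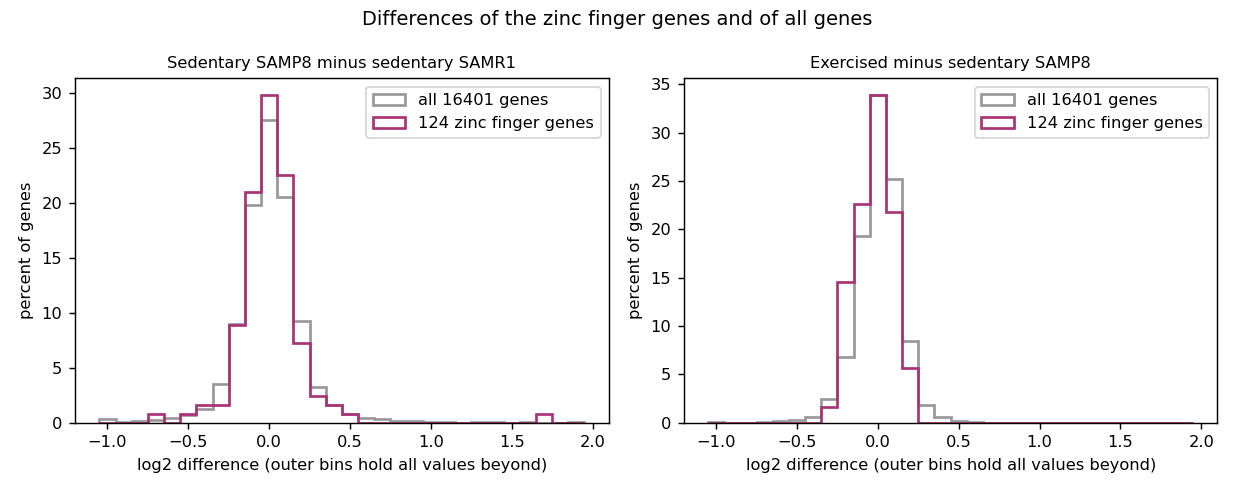
Distribution of log2 differences for the 124 zinc finger genes and for all 16401 genes, as percent of genes per bin, between the sedentary lines (left) and between exercised and sedentary SAMP8 (right). The curves largely overlie each other, with Zfp667 (1.73) the outlying zinc finger gene on the left.

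Zfp667 encodes a zinc finger protein described in rat as Mipu1, a transcriptional repressor with a KRAB domain. Its log2 intensities in SAMR1, replicates 1 to 5, were 8.02, 8.00, 7.30, 7.86 and 7.10. In sedentary SAMP8 they were 9.24, 9.48, 9.60, 9.28 and 9.33, and in exercised SAMP8 9.25, 8.95, 9.09, 9.56 and 9.41. All 10 SAMP8 arrays lay above all 5 SAMR1 arrays, and both SAMP8 groups overlapped. The difference between the sedentary lines was 1.73 ± 0.17 on the log2 scale (SE, n = 5 per group, adjusted p = 7.15e-06), and it was the 55th lowest p of all genes. It remained called without any one of the 15 arrays (adjusted p up to 4.75e-05).

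A second, dimmer probe of Zfp667 gave a smaller difference. It read 8.13, 7.68, 7.18, 7.51 and 7.24 in SAMR1, 7.96, 7.80, 7.73, 7.73 and 7.61 in sedentary SAMP8, and 7.76, 7.61, 7.58, 7.98 and 7.43 in exercised SAMP8. Here the 3 groups overlapped. The difference between the sedentary lines was 0.21 ± 0.15, with an adjusted p of 0.711 in a fit of each probe on its own, in which 2.45% of 27968 probes were called. The mean of both probes gave 0.97 ± 0.15 (adjusted p = 0.000856). Which transcripts each probe reads was not tested.

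Zfp667 stood among other zinc finger genes on chromosome 7, of which some were called and some not. Its nearest tested neighbour on one side, Zfp583, was higher by 0.36 ± 0.09 (adjusted p = 0.0367), and Zfp78, within 5 tested genes of it, by 0.53 ± 0.11 (adjusted p = 0.00781). Zfp583 and Zfp78 lay below the brightness threshold. The other zinc finger genes within that distance were not called: Zfp787 gave -0.14 ± 0.09, Zfp444 0.06 ± 0.07 and Zfp28 -0.15 ± 0.11. Nor was Galp, the nearest gene on the other side, which encodes galanin-like peptide (-0.04 ± 0.16, adjusted p = 0.973). Of the 3 called members 2 had another called gene within 5 tested genes in either direction, the second being Zfp975 with Zfp788 (-0.47 ± 0.12, adjusted p = 0.0356). Over the family 22 of 124 members (17.7%) had such a neighbour, as did 18.8% of all genes. Zfp78, Zfp788, Zfp787, Zfp444 and Zfp28 were named after their values were seen.

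Zfp367, described in human erythroid cells as a transcription factor, was lower in SAMP8. It read 9.63, 9.47, 9.20, 9.98 and 9.11 in SAMR1 and 8.80, 8.97, 8.39, 8.93 and 8.59 in sedentary SAMP8. In exercised SAMP8 it read 8.60, 8.33, 8.51, 8.54 and 8.68. Every SAMR1 array lay above every SAMP8 array. The sedentary difference was -0.74 ± 0.15 (adjusted p = 0.00992). The other 2 probes were dim, with means of 5.76 and 5.43 and with 1 and 9 arrays at the floor, and gave -0.11 ± 0.16 and 0.20 ± 0.12. The mean of all 3 probes was not called (-0.22 ± 0.08, adjusted p = 0.214).

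Zfp975 lies in another zinc finger cluster of chromosome 7. It read 11.17, 11.40, 11.21, 11.24 and 11.30 in SAMR1 and 10.74, 10.78, 11.00, 10.94 and 10.81 in sedentary SAMP8. In exercised SAMP8 it read 10.91, 10.64, 10.52, 10.69 and 10.71. SAMR1 did not overlap with either SAMP8 group, and the spread within groups was narrow (SD 0.088, 0.11 and 0.14). The sedentary difference was -0.41 ± 0.09 (adjusted p = 0.0118). Its second probe gave -0.29 ± 0.09 (adjusted p = 0.148 in the probe fit), with every SAMR1 array above every SAMP8 array. The remaining one gave -0.03 ± 0.10, and the mean of all 3 was not called (-0.24 ± 0.07, adjusted p = 0.0921). Whether the brightest probe also reads transcripts of related genes in the cluster was not tested.

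**Figure D3:**
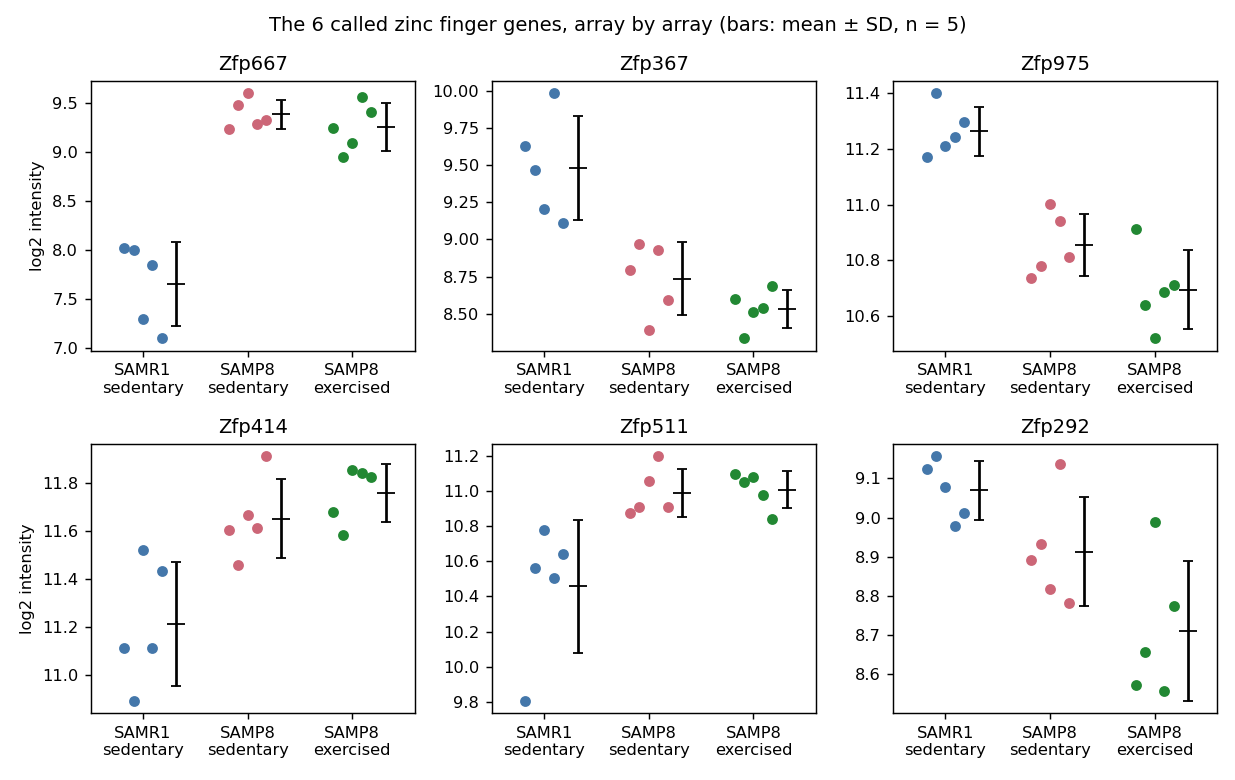
Log2 intensity of the 6 zinc finger genes called in at least 1 comparison, 1 point per array in the 3 groups, with bars for the mean ± SD (n = 5). In Zfp667, Zfp367, Zfp975 and Zfp511 the SAMR1 arrays lie apart from all SAMP8 arrays, and in Zfp414 and Zfp292 the sedentary groups overlap.

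The same-numbered sedentary arrays of both lines deviated together, and a fit of these 10 arrays blocked by replicate number called 6 members (4.84%, against 3.95% of all genes). The 3 added were Zfp414, Zfp985 and Zfp987. With the block over all 15 arrays 5 members were called (all genes 2.8%), Zfp987 no longer among them (adjusted p = 0.0745). Zfp414 read 11.11, 10.89, 11.52, 11.11 and 11.43 in SAMR1 against 11.61, 11.46, 11.67, 11.61 and 11.91 in sedentary SAMP8, with an overlap between SAMR1 replicate 3 and SAMP8 replicate 2. It was higher in SAMP8 in 5 of 5 numbered pairs, by 0.44 ± 0.08 with the block (adjusted p = 0.0237) and 0.44 ± 0.12 without it (adjusted p = 0.0654). Its other probe gave 0.55 ± 0.14 (adjusted p = 0.0497 in the probe fit), and the mean of both was called (0.50 ± 0.12, adjusted p = 0.043). It was also called without SAMR1 replicate 3 (0.52, adjusted p = 0.0251), which likewise raised the count of called members to 5 (4.03%, against 2.35% of all genes).

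Zfp985 and Zfp987 both lie on chromosome 4, and their values varied together by replicate number. They, Zfp3 and Zfp329 were named after their values were seen. Zfp987 read 10.05, 10.43, 10.13, 10.66 and 9.83 in SAMR1 and 9.80, 10.05, 9.40, 10.18 and 9.34 in sedentary SAMP8. Replicate 4 was the highest in both groups and in exercised SAMP8 (10.09). It was so in other members too, such as Zfp97 (10.61, 10.44 and 10.46), likewise named after its values were seen. Zfp987 was lower in sedentary SAMP8 in every numbered pair. The difference was -0.47 ± 0.08 with the block (adjusted p = 0.0218) and -0.47 ± 0.21 without it (adjusted p = 0.408). Zfp985 gave -0.37 ± 0.07 (adjusted p = 0.0249) and -0.37 ± 0.19 (adjusted p = 0.483). Zfp511 was 0.53 ± 0.14 higher in SAMP8 without overlap, yet was called in neither fit (adjusted p = 0.0636 and 0.0676). It was called without SAMR1 replicate 3 (0.61, adjusted p = 0.0333), with the dimmest 40% of genes left out (0.0453) and with a variance trend and robust prior (0.0377). Zfp3 was the fifth member without overlap (-0.19 ± 0.08, adjusted p = 0.382).

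Probes of a member could differ from one another. Of the 124 members 64 had several probes, and the 225 probes of the family included 6 that were called between the sedentary lines (2.67%, against 2.45% of all probes). The other 101 probes, those not used for a gene's value, held 3 of these 6, in Zfp414, Zfp329 and Zfp706. Zfp706 was the 1 member with probes that differed in opposite directions at an unadjusted p under 0.05 each. Its brightest probe read 12.47, 12.42, 12.60, 12.48 and 12.46 in SAMR1 against 12.91, 12.68, 12.85, 12.55 and 12.72 in sedentary SAMP8 (0.26 ± 0.09, adjusted p = 0.198 in the probe fit). Its dimmest read 6.81, 6.64, 6.50, 6.89 and 6.55 against 5.29, 5.52, 5.99, 5.39 and 5.60, lower in SAMP8 without overlap (-1.12 ± 0.15, adjusted p = 0.000249). The floor of 5.29 was reached on 3 SAMP8 arrays of this probe, sedentary and exercised together, so its size depends on the floor. The remaining Zfp706 probe gave 0.03 ± 0.09. A dim probe of Zfp329 was lower in SAMP8 (-0.38 ± 0.09, adjusted p = 0.0379) while the brightest gave 0.19 ± 0.11.

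**Figure D4:**
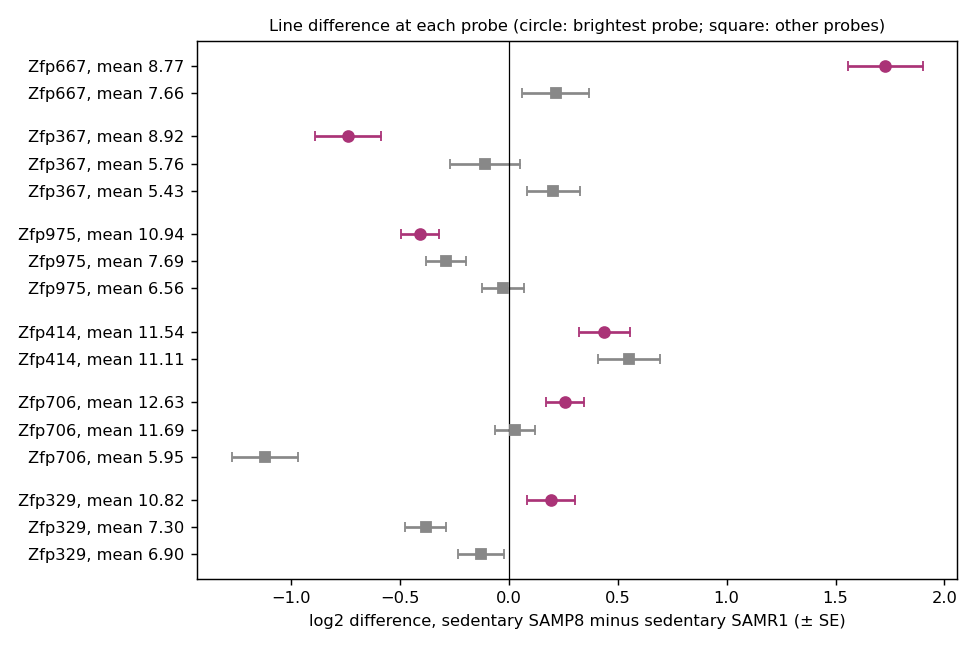
Log2 difference between sedentary SAMP8 and sedentary SAMR1 (± SE) at each probe of 6 members, labelled with the probe's mean log2 intensity. Circles are the brightest probes, used for the gene's value, and squares the others. The Zfp414 probes lie close together (0.44 and 0.55), those of Zfp667 apart (1.73 and 0.21) and those of Zfp706 on both sides of 0.

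None of the 27 members that were grouped by a better known role was called in any comparison. Of all genes 2.63% were called between the sedentary lines, 0% for exercise and 3.6% for exercised SAMP8 against SAMR1. At such shares 0 calls among 27 genes is not a result about these groups. The examples were named after their values were seen. Among 6 genes of neural development and neuronal proteins the differences between the sedentary lines ran from -0.06 to 0.18. They include Zfp536, a repressor of neuronal differentiation (-0.06 ± 0.09), Zfp462 (0.18 ± 0.14), Zfp335, needed for neurogenesis (-0.01 ± 0.13), Zfp365, a binding partner of the schizophrenia-associated protein Disc1 (-0.03 ± 0.10), and Zfp746, the parkin substrate Paris (0.06 ± 0.12). Among 9 genes of RNA, ribosome and protein modification they ran from -0.21 to 0.24. There Zfp598, the ubiquitin ligase that marks collided ribosomes, gave 0.24 ± 0.12, and Zfp593, whose yeast relative acts in ribosome assembly, gave -0.21 ± 0.13. Zfp622, a ribosome assembly factor, gave -0.15 ± 0.10, and Zfp451, a SUMO ligase, gave 0.13 ± 0.11. Among 12 chromatin and general transcription regulators they ran from -0.18 to 0.26. Zfp148 gave -0.18 ± 0.12 and Zfp445, a factor that protects genomic imprints, 0.13 ± 0.30. Zfp410, known as a selective activator of the chromatin remodeller gene Chd4, gave 0.18 ± 0.09, and Chd4 itself -0.10 ± 0.20. The median sizes of a difference were 0.062, 0.123 and 0.073, against 0.103 for the 97 members in no role group, and were not tested against each other. The median standard errors of these groups were 0.13, 0.10 and 0.10. At an unadjusted p under 0.05 there were 0, 0 and 1 of them between the sedentary lines (all genes 11.2%). For exercise there were 0, 1 and 1 (all genes 3.49%). For exercised SAMP8 against SAMR1 there were 2 of 6, 0 of 9 and 3 of 12 (all genes 15.9%).

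The corepressor machinery that KRAB zinc finger proteins work through was measured in 32 genes. None was called between the sedentary lines, 0 higher and 0 lower, with 2 at an unadjusted p under 0.05 (6.25%, against 11.2% of all genes). The median difference was 0.07 (all genes 0.003), with 22 genes higher and 10 lower. Trim28, the scaffold that binds the KRAB domain, read 11.59, 12.05, 11.96, 11.90 and 11.99 in SAMR1 and 11.82, 12.02, 12.25, 11.85 and 12.18 in sedentary SAMP8 (0.12 ± 0.11, adjusted p = 0.783). Setdb1 gave 0.14 ± 0.13 (adjusted p = 0.8). The 4 genes with the lowest p were Ehmt2, a histone methyltransferase also called G9a (0.33 ± 0.11, adjusted p = 0.177), its partner Ehmt1 (0.19 ± 0.10), Morc2a, an ATPase of the silencing machinery (0.30 ± 0.10), and the histone demethylase Kdm1a (0.20 ± 0.10). Ehmt2 read 14.24, 13.97, 14.14, 13.85 and 14.15 in SAMR1 and 14.41, 14.36, 14.51, 14.28 and 14.43 in sedentary SAMP8, without overlap. It was called with the sedentary arrays blocked by number (0.33 ± 0.07, adjusted p = 0.0378), the 1 of 26 other settings to do so. With the block over all 15 arrays it was not (adjusted p = 0.12).

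**Figure D5:**
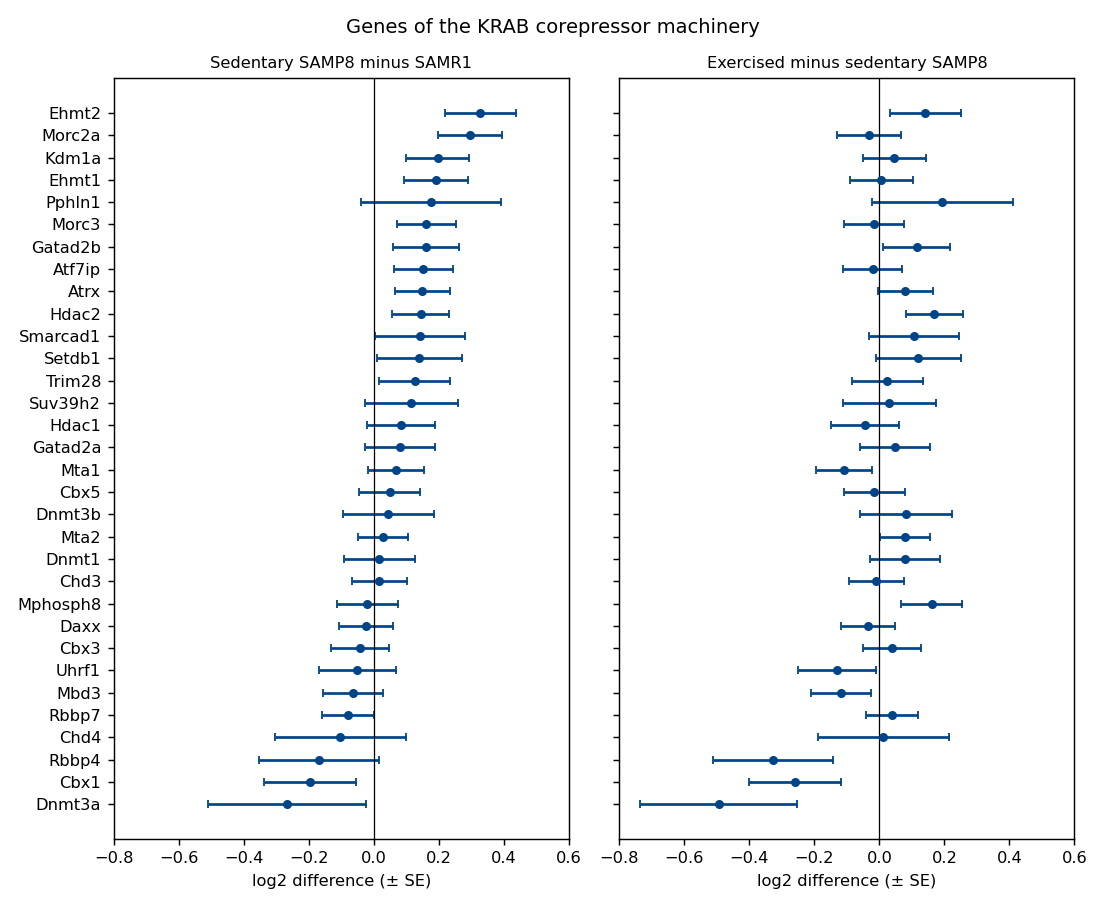
Log2 differences (± SE) of 32 genes of the KRAB corepressor machinery between sedentary SAMP8 and SAMR1 (left) and between exercised and sedentary SAMP8 (right), which share the sedentary SAMP8 arrays. No gene was called in either panel, and Ehmt2 (0.33) lies highest on the left.

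The second comparison set exercised against sedentary SAMP8. No zinc finger gene was called, nor was any of the 16401 genes (0%, limma). At an unadjusted p under 0.05 there were 4 members (3.23%) against 573 genes in all (3.49%), each of the 4 lower after exercise. Of the 573 genes 355 were lower and 218 higher. The median difference over the members was -0.01 (all genes 0.01), with 55 higher and 69 lower. The 5 lowest p belonged to Zfp326, Zfp60, Zfp292, Zfp644 and Zfp536, with adjusted p of 1 each.

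Zfp326 encodes a subunit of a complex that couples transcript elongation to splicing. It read 10.48, 10.55, 10.55, 10.63 and 10.59 in sedentary SAMP8 and 10.29, 10.31, 10.32, 10.33 and 10.45 in exercised SAMP8. The groups did not overlap, and SAMR1, at 10.53, 10.48, 10.40, 10.37 and 10.40, overlapped with both. The difference was -0.22 ± 0.07 (unadjusted p = 0.00427), and the mean of its 4 probes gave -0.12 ± 0.09. Zfp60 read 9.49, 9.51, 9.59, 9.58 and 9.59 in sedentary and 9.14, 9.23, 9.48, 9.43 and 9.09 in exercised SAMP8, again without overlap (-0.28 ± 0.10, unadjusted p = 0.0111). The mean of its 3 probes gave -0.06 ± 0.06. These were the 2 members without overlap (1.61%), against 0.439% of all genes. Both were lower after exercise (all genes 0.219% lower and 0.219% higher). Zfp292 gave -0.20 ± 0.09, Zfp644, a partner of the Ehmt1 and Ehmt2 methyltransferases, gave -0.24 ± 0.11, and Zfp536 gave -0.19 ± 0.09.

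The members that differed between the sedentary lines did not pass the test for exercise. Zfp667 differed by -0.13 ± 0.17, Zfp367 by -0.20 ± 0.15 and Zfp975 by -0.16 ± 0.09 between exercised and sedentary SAMP8. Of the corepressor genes 0 of 32 were called for exercise (0 at an unadjusted p under 0.05), and the lowest value was that of the DNA methyltransferase gene Dnmt3a (-0.49 ± 0.24, named after its value was seen). The mean of the 3 Dnmt3a probes gave -0.17 ± 0.13.

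The third comparison set exercised SAMP8 against SAMR1 and shares the SAMR1 arrays with the first. Of the members 6 were called (4.84%), 3 higher and 3 lower, against 3.6% of all genes, 1.75% higher and 1.85% lower. They were Zfp667 (1.60 ± 0.17, adjusted p = 1.86e-05), Zfp414 (0.54 ± 0.12, adjusted p = 0.0146) and Zfp511 (0.55 ± 0.14, adjusted p = 0.0429), higher in SAMP8, and Zfp367 (-0.94 ± 0.15, adjusted p = 0.00114), Zfp975 (-0.57 ± 0.09, adjusted p = 0.000596) and Zfp292 (-0.36 ± 0.09, adjusted p = 0.045), lower. Zfp667, Zfp367 and Zfp292 had a group mean at or below the brightness threshold, so this count is not a result about the family. Zfp414 read 11.68, 11.58, 11.86, 11.84 and 11.83 in exercised SAMP8, above every SAMR1 array. Zfp511 read 11.10, 11.05, 11.08, 10.98 and 10.84, against 9.80, 10.56, 10.78, 10.50 and 10.64 in SAMR1, where replicate 1 lay far below the others. Zfp292, known in rat as an enhancer of growth hormone gene transcription, read 8.57, 8.66, 8.99, 8.56 and 8.77 in exercised SAMP8. In SAMR1 it read 9.12, 9.16, 9.08, 8.98 and 9.01, and the groups overlapped by 1 exercised array.

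At an unadjusted p under 0.05 there were 25 members (20.2%) against 15.9% of all genes. Of the members 8 were higher and 17 lower, and of all genes 1376 were higher and 1232 lower, a split that was not tested. Groups without overlap were found in 5 members (4.03%) against 4.9% of all genes, 3 higher (all genes 2.44%) and 2 lower (all genes 2.45%).

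The calls of Zfp292 and Zfp511 in that comparison lay close to the threshold. Zfp292 lost its call when a single array was dropped in 12 of 15 cases, the exceptions being sedentary SAMP8 replicates 4 and 5 and exercised SAMP8 replicate 3 (adjusted p up to 0.11). Zfp511 lost it in 10 of 15 cases, the exceptions being SAMR1 replicates 1, 3 and 5, sedentary SAMP8 replicate 4 and exercised SAMP8 replicate 5 (up to 0.0907). Both also lost it in a fit restricted to these 10 arrays (0.0802 and 0.107) and with no floor (0.05 and 0.0529), and Zfp511 with the floor raised to the 20th percentile (0.0648) and with array weights (0.0647). Of the corepressor genes 1 of 32 was called (3.12%, against 3.6% of all genes), and 9 (28.1%) had an unadjusted p under 0.05, 6 higher and 3 lower, against 15.9% of all genes. The called gene was Ehmt2 (0.47 ± 0.11, adjusted p = 0.0226), with exercised arrays at 14.31, 14.27, 14.73, 14.59 and 14.80, all above SAMR1. Dropping SAMR1 replicate 2 or 4, or exercised SAMP8 replicate 3, 4 or 5, ended this call (up to 0.0635) as did the restricted fit (0.074).

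Zinc finger genes outside the rule gave these values. Of the 161 genes with a Zfp number symbol at or below the median brightness, 9 (5.59%) were called between the sedentary lines, 5 higher and 4 lower, against 2.63% of all genes, 1.46% higher and 1.16% lower. The widest differences were those of Zfp551 (-2.91 ± 0.15) and Zfp606 (2.22 ± 0.13) on chromosome 7 and Zfp429 on chromosome 13 (1.62 ± 0.09). Next came Zfp599 on chromosome 9 (-1.07 ± 0.12) and Zfp324 on chromosome 7 (-1.04 ± 0.10). Zfp551, Zfp606 and Zfp324 lay within 5 tested genes of the member Zfp329. All of these genes were named after their values were seen. Among 38 genes with a Zbtb number symbol and 20 with a Zscan or Zkscan symbol 0 were called (limma), with 3 (7.89%) and 0 (0%) at an unadjusted p under 0.05, against 11.2% of all genes. These shares were not tested against that of the 124 genes.

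Markers of tissue bordering the hippocampus gave these values between the sedentary lines. Of 17 choroid plexus and ependyma markers 3 were higher in sedentary SAMP8, with a median difference of -0.77 and 0 called, and of 18 markers of meninges and fibroblasts 17 were higher, with a median of 0.84 and 6 called. The log2 of the summed choroid plexus intensities ran from 13.16 to 14.87 in SAMR1, 12.03 to 14.79 in sedentary SAMP8 and 11.49 to 14.72 in exercised SAMP8. The choroid plexus ranges thus overlapped widely. The log2 sum of the meningeal markers ran from 13.37 to 14.58, 14.32 to 15.21 and 14.08 to 14.88. Of 10 pericyte and smooth muscle markers 9 were higher, with a median of 0.68 and 6 called, and their log2 sums ran from 12.83 to 13.52, 13.57 to 14.01 and 13.59 to 13.82; the part of these cells in the results was not tested. In each of the 3 lists 0 markers were at the floor on all arrays. When the choroid plexus and meningeal means entered as covariates Zfp667 kept its call (1.78 ± 0.27, adjusted p = 0.00398). Zfp367 (-0.70 ± 0.24, adjusted p = 0.348) and Zfp975 (-0.55 ± 0.13, adjusted p = 0.0587) lost theirs at differences of like size with wider standard errors. In the third comparison Zfp414 (0.46, adjusted p = 0.244), Zfp511 (0.32, adjusted p = 0.544) and Zfp292 (-0.27, adjusted p = 0.444) lost theirs. Of 5 oligodendrocyte markers 0 were higher in sedentary SAMP8, with a median of -0.22 and 0 called, and their log2 sums ran from 16.11 to 16.37, 15.77 to 16.35 and 15.56 to 16.06. Their part in the results was not tested. The 14 markers of hippocampal neurons were bright in all groups, with list means from 10.96 to 11.42 per array. Of these markers 7 were higher in sedentary SAMP8, with a median of -0.01 and 1 called. In whole tissue, fewer cells of a type and less RNA per cell cannot be told apart.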

How the data were processed

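Cy3-labelled cRNA from total RNA of whole hippocampus was hybridised to 15 1-colour arrays, per the labels' protocols. The authors deposited normalized intensity per feature, unlogged, between 4.02 and 65480. Their sorted columns are nearly identical, as quantile normalization leaves them, and array medians ran from 207.75 to 208.67. Limma is named in the submitters' processing notes, with no version or step. For the background step and the filter that left 23.8% of features empty, the labels give no account.

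The platform annotation gave features their genes (27968 with 1 symbol, 38 with several, 6473 not listed). The brightest of a gene's probes was used. Intensities under the 5th percentile (39.17) were raised to it before taking log2. Groups were compared with limma 3.58.1 in R 4.3.3 (lmFit, eBayes, two-sided) in 1 fit of 15 arrays with Benjamini-Hochberg adjustment over 16401 genes, tested on simulated data. Named genes followed a rule: called members, otherwise the 5 lowest p, the 5 brightest, those beside the threshold, those with opposed probes, called neighbours, and of the corepressor list called genes, Trim28, Setdb1 and the 4 lowest p. The members, lists and role groups were chosen with earlier results of these data known. Gene order came from the RefSeq table of GRCm38.p6, in which 16334 genes had a position.

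Deviations from group means correlated across genes in 5 of 5 same-numbered sedentary pairs (r = 0.27, 0.23, 0.38, 0.52 and 0.42), each array best with its own number. The main fit held no replicate block, so its p-values did not use this pairing. Fits blocked by replicate number are given beside it. For exercised and sedentary SAMP8 the correlations ran from -0.10 to 0.35, and for exercised SAMP8 and SAMR1 from 0.01 to 0.37. Precision is limited by having 5 arrays a group.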

Additional observations from a re-analysis of the deposited data

Results flagged for a closer look

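Single arrays stood apart within a group in 4 of 69 group values of the named genes, by a gap to the nearest other array that took over 0.71 of the group's range (Dixon's test for 5 values). Over all members it was so in 22 of 372 group values (5.91%), and chance gives about 1 in 20. Zfp644 in exercised SAMP8 had replicate 4 at 10.02, above the others at 9.70 to 9.74 (gap 0.885 of the range). Zfp326 in exercised SAMP8 had replicate 5 at 10.45, above the others at 10.29 to 10.33 (gap 0.751). Zfp536 in sedentary SAMP8 had replicate 5 at 11.66, below the others at 11.80 to 11.86 (gap 0.721). Zfp511 in SAMR1 had replicate 1 at 9.80, below the others at 10.50 to 10.78 (gap 0.717). Without SAMR1 replicate 1 the difference of Zfp511 between the sedentary lines was 0.37, the lowest over the 15 arrays left out.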

How the results depend on the processing

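Between the sedentary lines the count of called zinc finger genes was 3. It was 5 without the dimmest 40% of genes, 5 with a variance trend and robust prior, 5 with the replicate block over all 15 arrays, 6 with the replicate block over the 10 arrays compared and 1 with the choroid plexus and meningeal covariates. Leaving out each array in turn gave 3 to 5. The count over all genes, 431 (2.63%), was 337 without the dimmest 40% of genes. It was 434 (2.65%, members 4.03%) with the variance trend and 460 (2.8%, members 4.03%) with the block over all 15 arrays. With the block over the 10 arrays it was 648 (3.95%, members 4.84%). It was 152 (0.927%, members 0.806%) with the covariates and 336 to 472 with arrays left out. For exercise the count of zinc finger genes was 0 under all 26 settings, and over all genes 0 to 1 with arrays left out, the 1 without exercised SAMP8 replicate 3. For exercised SAMP8 against SAMR1 the count of zinc finger genes, 6, was 10 (8.06%) with the block over all arrays, where 726 of all genes (4.43%) were called, 3 with the covariates and 4 to 7 with arrays left out. Over all genes it was 590, and 323 with the block over the 10 arrays, 265 with the covariates and 406 to 598 with arrays left out. Same-numbered arrays of that comparison correlated at r from 0.01 to 0.37. There the block over the 10 arrays ended the calls of Zfp292, Zfp511 and Ehmt2. Reversed directions were found for Zfp706 between the lines with the mean of all probes (-0.28) and for Trim28 with the covariates (-0.10). The cause of these changes was not tested. Of 650 values of single genes under other settings 593 kept their direction and side of the threshold, 45 lost a call, 10 gained one and 2 reversed. The deposited table gives no background signal, so how far dim probes stand above background is unknown.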
